A study of Mus musculus with 2 samples.

Results

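The dendritic cells described here were 67 of 24208 cells from a pair of mouse lung tumours, 42 in the control tumour and 25 in the tumour made with an shRNA against Gfpt2. A cell was kept when Flt3, Zbtb46, Xcr1, Clec9a, Ccr7 and Siglech together gave at least 3 UMIs (unique molecular identifiers, one per captured transcript). It also had no UMI of Cd3d, Cd3e or Cd3g, low Lyz2 and C1q (under 20 and under 5 per 10000 UMIs), at most 1 UMI of the NK cell genes Ncr1, Klrb1c and Klre1, and at most 2 UMIs of the tumour genes Hmga2, Tnfrsf12a and Igf2bp2. Both tumours were of LLC, the Lewis lung carcinoma line, and are labelled as lung cancer xenografts. One was a control and the other carried the hairpin against Gfpt2, the second form of the enzyme that opens the hexosamine pathway. There was 1 library of each. Whether the hairpin acted in the tumour cells alone, the kind of control, and the strain, age and number of mice are not given in the sources used here.

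Dendritic cells take up antigen, carry it to lymph nodes and present it to T cells. The conventional type 1 cells, marked by Xcr1 and Clec9a, are known for taking up dead tumour cells and presenting their antigens to CD8 T cells. Dendritic cells that mature switch on Ccr7, the receptor that guides them to the lymph node, together with Fscn1, Il12b, Ccl22 and costimulatory molecules. Plasmacytoid cells, marked by Siglech, are known for making type I interferon.

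The promoters of 4 genes are shown because these genes mark the 2 main kinds of cell found, or lay far below the control level. Xcr1 marks the type 1-like cells and Fscn1 the Ccr7 cells, and Ccl22 and Il12b lay furthest below the control level among the listed genes with at least 50 UMIs. Each run is the 250 bases before the RefSeq start, 5′ to 3′ on the gene's strand, in GRCm38.p6, and capitals mark a motif match. The 4 windows end at the base before the start.
Xcr1, chr9:123862030-123862279, minus strand: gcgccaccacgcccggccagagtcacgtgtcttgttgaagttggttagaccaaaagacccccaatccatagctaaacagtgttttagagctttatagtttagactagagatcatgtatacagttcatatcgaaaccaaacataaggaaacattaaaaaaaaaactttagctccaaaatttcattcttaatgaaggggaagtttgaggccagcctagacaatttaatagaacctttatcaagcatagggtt
Fscn1, chr5:142960105-142960354, plus strand: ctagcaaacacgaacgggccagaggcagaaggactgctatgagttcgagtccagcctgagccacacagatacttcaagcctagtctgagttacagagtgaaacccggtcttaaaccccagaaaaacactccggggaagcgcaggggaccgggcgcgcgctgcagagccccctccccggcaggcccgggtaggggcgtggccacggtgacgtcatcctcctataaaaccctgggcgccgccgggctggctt
Ccl22, chr8:94745434-94745683, plus strand: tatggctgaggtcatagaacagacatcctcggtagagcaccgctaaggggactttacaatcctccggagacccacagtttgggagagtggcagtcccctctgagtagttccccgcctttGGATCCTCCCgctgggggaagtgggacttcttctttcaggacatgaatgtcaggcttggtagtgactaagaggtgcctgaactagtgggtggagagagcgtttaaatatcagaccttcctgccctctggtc
Il12b, chr11:44399813-44400062, plus strand: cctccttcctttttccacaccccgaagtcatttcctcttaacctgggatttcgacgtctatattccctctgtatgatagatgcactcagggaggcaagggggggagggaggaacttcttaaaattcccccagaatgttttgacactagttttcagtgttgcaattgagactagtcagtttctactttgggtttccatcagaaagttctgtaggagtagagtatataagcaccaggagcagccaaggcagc
4 motifs were searched on both strands. They were TGANTCA (AP-1), GGAA and GAAA with any 2 bases between (ETS-IRF), GAAA and GAAA with any 2 bases between (IRF), and GGG and TCC with any 4 bases between (kB-like). The ETS-IRF and IRF motifs can overlap. The Ccl22 window held 1 kB-like match, GGATCCTCCC, at 131 to 122 bases before the start, and the Il12b, Xcr1 and Fscn1 windows held none of the 4. A kB-like match was present in 16.5% of 32851 RefSeq promoters, AP-1 in 6.75%, IRF in 2.98% and ETS-IRF in 2.3%. Of 13 genes looked for, 11 had a promoter entry, and Ccr7 and Ccl5 had none. Among the other 7, Zbtb46 held an AP-1 match, TGACTCA, 61 to 55 bases before the start. These genes were chosen after their values were seen, and a match is a description of letters only.

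The libraries held 165824226 and 138402860 UMIs, and 11648 and 12560 cells passed the filter of at least 500 genes and at most 20% mitochondrial UMIs. The dendritic cells of the control carried 282549 UMIs and those of the knockdown library 176389, with a median of 5869.5 and 5527.0 per cell against 10848 and 7763.0 over all passing cells. Between the libraries 37 cell barcodes were shared, none of them a dendritic cell. No dendritic cell fell among the cells ranked highest by a doublet score. Gfpt2 had no UMI in the dendritic cells of either library, while its paralog Gfpt1 had 30 and 22. In tumour-like cells Gfpt2 stood at 1.98 CPM (UMIs scaled to a total of 1000000) against 0.527 CPM after knockdown.

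Dendritic cells made up 0.361% of control cells (exact 95% interval 0.260 to 0.487%) and 0.199% of knockdown cells (0.129 to 0.294%). The ratio of the shares was 0.552 (0.322 to 0.927). With 1 library a group this interval covers counting error only, and it crossed 1 under 3 other ways of choosing the cells. The ratio was 0.745 (0.501 to 1.10) with a marker sum of at least 2 UMIs, 0.776 (0.484 to 1.24) with a sum set per 10000 UMIs, and 0.683 (0.346 to 1.32) with every cell thinned to 3000 UMIs. Depth moved with the share, since the median passing cell held fewer UMIs in the knockdown library, and its part in the difference was not tested. The marker sum alone was met by 75 control and 65 knockdown cells, and the exclusions took most of the rest through tumour genes (18 and 24 cells) and C1q (17 and 18). Just inside the limit, 2 control and 4 knockdown dendritic cells held exactly 3 UMIs, and just outside it 19 and 24 cells held 2.

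The label was checked against marker genes. All 67 cells had Cst3, an extracellular protease inhibitor that dendritic cells make in quantity, at 33474 CPM (control) and 30019 CPM (knockdown) against 2587 and 2627 CPM in macrophages. The pan-leukocyte gene Ptprc had a UMI in 24 of 42 and 13 of 25. No T cell gene of 10 and no mast cell gene of 5 had a UMI, of which the rule itself required 0 of Cd3d, Cd3e and Cd3g. Siglech stayed at 0 in both libraries. The rule itself capped Lyz2 and the C1q genes, which the macrophage list holds. That list stood at 892 and 833 CPM, against 62601 and 58839 CPM in macrophages. Of its 12 genes, 10 and 8 had a UMI, and the summed UMIs per cell ran from 0 to 16 (control) and from 1 to 22 (knockdown).

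A set of 6 cells, 2 of the control and 4 of the knockdown library, stood apart, some of them with dendritic genes as well. They carried at least 10 UMIs of fibroblast genes or less than 20 Cst3 UMIs per 10000, a limit chosen after the values were seen. The control pair entered through Zbtb46 alone, at 3 UMIs each, with 29 and 141 UMIs of Dcn and 35 and 70 of Col3a1, both matrix genes of fibroblasts, and with no Ptprc, Xist or Cd74. In the knockdown library, 1 such cell was type 1-like and the deepest of all, with 16505 UMIs, 4 of Xcr1, 33 of H2-Ab1 and 54 of Dcn. Another pair carried 3 UMIs of Ccr7 each, with 22 and 13 UMIs of Col3a1, and the first of them also held 89 UMIs of Cd74 and 51 of Ccl5. The remaining cell held 3 UMIs of Zbtb46 and 1 of Cst3. Among the 6 cells of either library at exactly 3 rule UMIs, 5 were of this set. The fibroblast list, with 5 of 7 genes present, stood at 1097 and 1151 CPM in all dendritic cells and at 83.7 and 79.1 CPM without these cells. In tumour-like cells the same list stood at 2048 and 2360 CPM. It therefore does not tell fibroblasts from tumour cells here, and the source of these UMIs was not tested. Ratios within the Ccr7 and type 1-like cells are given with them, and also without them where that moves the value past its own interval or an end of the interval past 0.

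Each cell was sorted by whether Xcr1 plus Clec9a, Ccr7 or Siglech had the most UMIs, and by Flt3 or Zbtb46 only where those were all at 0. This gave 2 main kinds that hardly overlapped. Xcr1 or Clec9a led in 17 of 42 control cells (40.5%, exact interval 25.6 to 56.7%) and 10 of 25 knockdown cells (40%, 21.1 to 61.3%). Ccr7 led in 23 control cells (54.8%, 38.7 to 70.2%) and 12 knockdown cells (48.0%, 27.8 to 68.7%). Siglech had no UMI, which leaves an exact upper limit of 8.41% of control and 13.7% of knockdown dendritic cells for cells with a UMI of it. Flt3 or Zbtb46 alone was found in 2 and 3 cells. Only 3 control and 2 knockdown cells held UMIs of both Ccr7 and the Xcr1 and Clec9a pair, and in none did the groups lie within 1 UMI of each other. These sortings use the rule genes themselves and are a description.

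**Figure D1:**
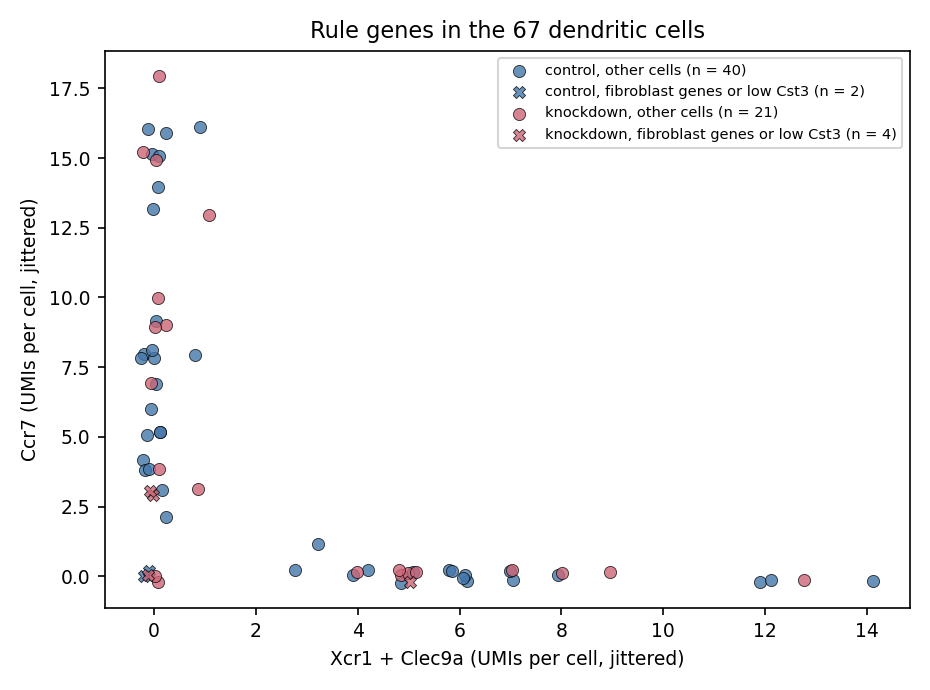
UMIs of Ccr7 (vertical axis) against summed UMIs of Xcr1 and Clec9a (horizontal axis) in each of the 67 dendritic cells, jittered, coloured by library; crosses are the 6 cells with fibroblast genes or low Cst3. The cells lie along the axes, with few off them, and the crosses sit at the low end or apart.

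The Xcr1 or Clec9a cells were type 1-like in both libraries. Of 14 type 1 markers other than the rule genes, 12 (control) and 13 (knockdown) stood at least 2-fold above the other dendritic cells. Leading genes were Plbd1, Naaa, which encodes a lysosomal lipid amidase, Rab7b, Mpeg1 and Wdfy4, which is needed for cross-presentation. Naaa gave 146 UMIs in the control type 1-like cells and 1 in all other control dendritic cells, and 94 and 0 in the knockdown library. Wdfy4 gave 179 and 1, and 84 and 5. Tlr3, the receptor for double-stranded RNA, gave 43 and 30 UMIs in the type 1-like cells and none in the Ccr7 cells. Among dendritic cells, Naaa and Wdfy4 were thus nearly absent outside the type 1-like ones. In macrophages Naaa stood at 47.4 and 36.5 CPM and Wdfy4 at 31.9 and 30.5 CPM, and in tumour-like cells Naaa at 13.4 and 14.6 CPM and Wdfy4 at 0.703 and 1.23 CPM.

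Among genes of type 1 identity, Xcr1 and Clec9a chose and sorted the cells, so their levels are a description. Xcr1 ran from 0.919 over a median of 3.55 to 9.65 UMIs per 10000 in the 17 control cells, and from 1.49 over 4.62 to 13.8 in the 10 knockdown cells. Irf8, the transcription factor that sets the type 1 fate, ran from 5.32 over 17.8 to 33.2 and from 7.46 over 19.7 to 29.8. Both ranges overlap almost entirely. Clec9a, the receptor for actin exposed on dead cells, had a median of 3.02 and 2.11 UMIs per 10000, and its pooled log2 ratio was -0.87 (-1.74 to -0.07), or -0.70 (-1.59 to 0.11) without the cells set apart.

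The Ccr7 cells were mature-like. Of 23 markers of mature migratory cells, 21 (control) and 20 (knockdown) stood at least 2-fold above the other dendritic cells. Their leading genes were Ccl5, a chemokine for T cells, Fscn1, which bundles actin into the processes of mature cells, Tmcc3, Cacnb3, Fabp5, a fatty acid carrier, Il4i1 and Ccl22. Ccl5 gave 550 UMIs in the control Ccr7 cells and 4 in all other control dendritic cells, and 282 and 8 in the knockdown library. Ccl22 gave 202 and 36 UMIs and had none in the other dendritic cells. Ccr7 cells gave fewer UMIs, with a median of 4014.0 and 3859.0 per cell against 8363.0 and 9601.5 in the type 1-like cells.

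MHC class II, which presents antigen to CD4 T cells, split the 2 kinds. H2-Ab1, a class II beta chain, reached at least 30 UMIs in all 17 control and all 10 knockdown type 1-like cells. Among Ccr7 cells it was at 0 in 14 of 23 and 4 of 12, and at least 30 in 4 and 0. Its partner H2-Aa was found in more of the same cells, in 21 of 23 and 10 of 12. Cd74, the chaperone of class II, was found in all Ccr7 cells at a median of 21.9 and 34.1 UMIs per 10000, against 202 and 199 in type 1-like cells. Fscn1 stood at 516 CPM in the 4 control Ccr7 cells with much H2-Ab1 and at 3085 CPM in the 14 without it. Ccl22 was uneven among those 4, at 0, 1, 17 and 23 UMIs.

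**Figure D2:**
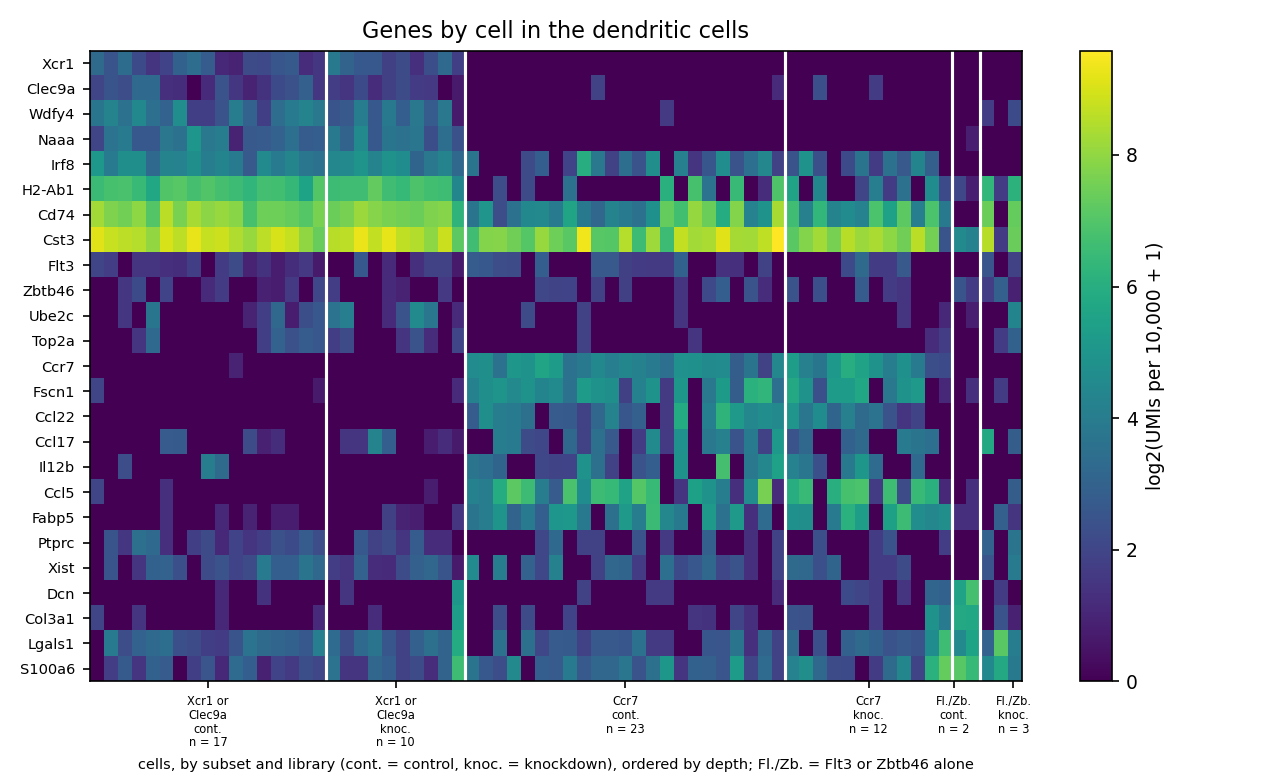
Levels of 25 genes (rows) in each of the 67 dendritic cells (columns) as log2 of UMIs per 10000 plus 1, with white lines between subsets and libraries. The type 1-like and Ccr7 cells form separate blocks in both libraries, and Dcn, Col3a1, Lgals1 and S100a6 are bright in the few cells set apart.

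A small remainder was left unnamed. In the knockdown library, 2 cells with Flt3 and no Ccr7, Xcr1 or Clec9a carried 159 and 196 UMIs of Cst3 and 34 and 81 of H2-Ab1. One had 9 UMIs of Mgl2 and 23 of Ccl17, and the other 6 UMIs of Clec10a, 28 of Il1b and 54 of Ccl4. Mgl2 and Clec10a are lectins of type 2 dendritic cells, and with the third knockdown cell of this group 9 of 14 type 2 markers stood at least 2-fold above the other knockdown dendritic cells. The control pair of this group were both cells set apart. Of the 14 type 2 markers, 8 had a UMI in control and 10 in knockdown dendritic cells, at 421 and 510 CPM for the list, below the 710 and 685 CPM of macrophages.

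Against all other cells of the same tumour, the leading genes were ranked by the smaller of the 2 libraries' ratios, so they are high in both by that choice. Ccl17, a chemokine for Ccr4-bearing T cells, stood at 439 CPM against 1.80 CPM in other control cells and at 493 against 1.49 CPM in the knockdown library. Wdfy4 stood at 637 against 8.83 and 505 against 8.87 CPM, and Irf8 at 1327 against 53.2 and 1225 against 52.0 CPM. Qpct ranked between Ccl17 and Wdfy4, and Napsa, Cytip, Pkib and Pde4d ranked between Wdfy4 and Irf8. Bcl2a1d and Bcl2a1a were also among these 20 genes, and are uncertain because near-identical copies share their reads. The cells were chosen by their genes, so these differences are given with no test.

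**Figure D3:**
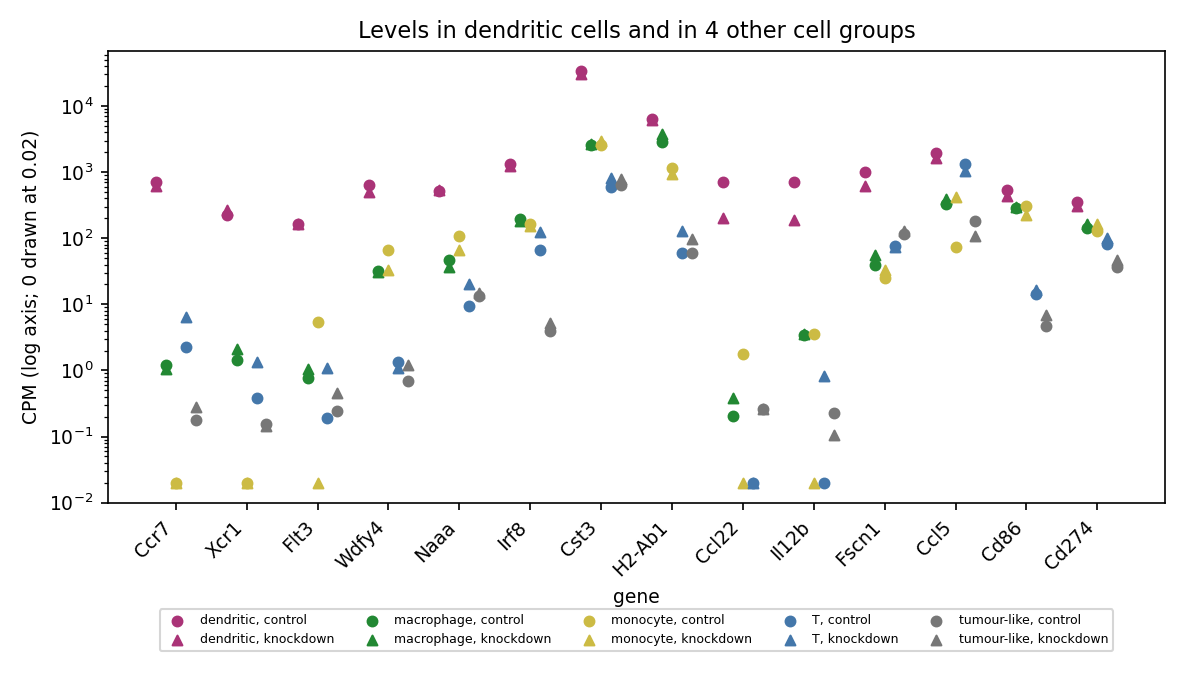
CPM (log axis, 0 drawn at the foot) of 14 genes in dendritic cells and in macrophage, monocyte, T and tumour-like cells, circles for the control and triangles for the knockdown library. Dendritic cells sit highest for each gene in both libraries, least so for Ccl5, at 1961 and 1644 CPM against 1341 and 1056 CPM in T cells, and for Cd86. For Ccr7, Xcr1 and Flt3, which are rule genes, this place was set by the choice of cells.

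Ccl22 and Il12b were close to silent elsewhere. Ccl22, the partner chemokine of Ccl17, stood at 715 CPM in dendritic cells of the control and 204 CPM in those of the knockdown tumour, and at 0.204 and 0.389 CPM in macrophages. Il12b, the shared subunit of interleukin 12 and interleukin 23, stood at 697 and 187 CPM against 3.40 and 3.54 CPM. No UMI of Ccl22 was found in 606 control and 525 knockdown T cells of median depth 3742.0 and 3265.0 UMIs, whereas 87.0% of control and 83.3% of knockdown Ccr7 cells had one. Thinned to 3000 UMIs, 83.3% of 18 control and 57.1% of 7 knockdown Ccr7 cells had one, and the intervals overlap (58.6 to 96.4% and 18.4 to 90.1%). Those 7 include the 2 knockdown Ccr7 cells set apart, which held 0 UMIs of Ccl22 before thinning. Il12a and Il23a, the other subunits of those cytokines, had no UMI in the dendritic cells.

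Between the tumours, most genes of the dendritic cells lay close to equal. Among 839 genes with at least 50 UMIs in 1 library, 7 (0.834%) were at least 2-fold higher and 35 (4.17%) at least 2-fold lower in the knockdown library, 42 in all (5.01%), and the median log2 ratio was 0.00. Scaling by the median of ratios, a shift of 0.10, gave 3 higher and 48 lower. The control dendritic cells carried more UMIs, 282549 against 176389. Genes higher in the control thus reached 50 UMIs more easily than genes higher in the knockdown library. The 35 lower and 7 higher genes are therefore no measure of a skew. With only 1 UMI needed in each library, 1215 were higher and 1054 lower. With 1 library a group there is no test of the condition, and the intervals cover counting error only.

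**Figure D4:**
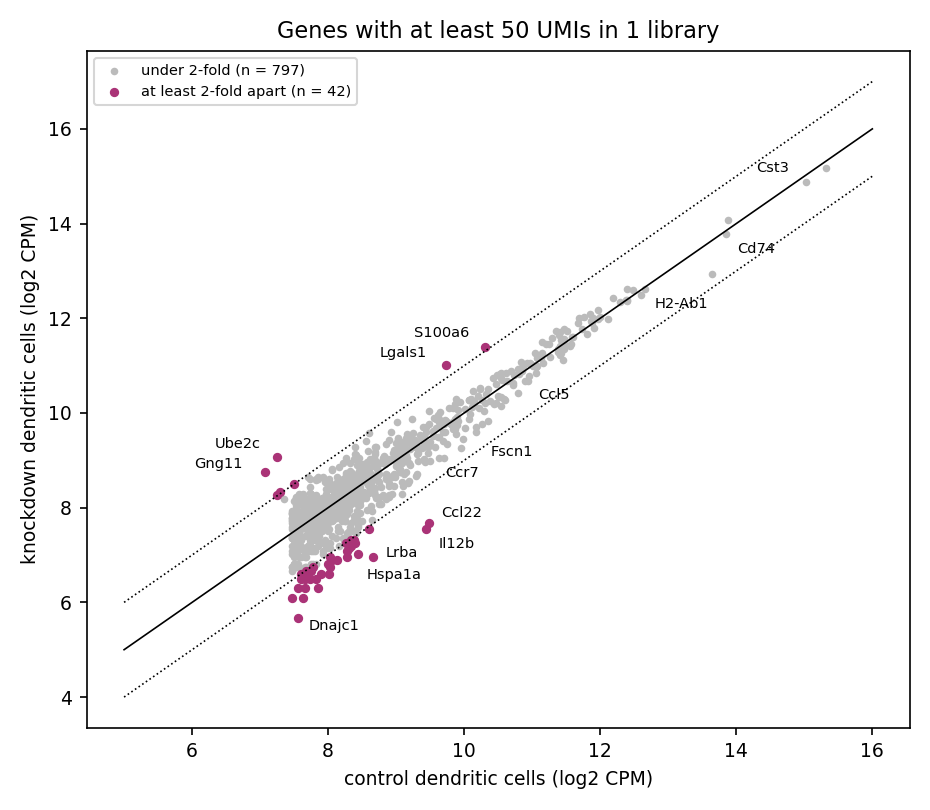
Log2 CPM of 839 genes in knockdown (vertical axis) against control dendritic cells (horizontal axis); the solid line marks equality and the dotted lines 2-fold. The 42 genes at least 2-fold apart are coloured, with Il12b and Ccl22 the most abundant of those below and Lgals1 and S100a6 of those above.

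Il12b and Ccl22 lay lowest among the listed genes that reached 50 UMIs. Il12b gave 197 UMIs in the control (697 CPM, exact Poisson interval 603 to 802) and 33 after knockdown (187 CPM, 129 to 263), which is a log2 ratio of -1.90 (-2.48 to -1.36). Ccl22 gave 202 UMIs (715 CPM, 620 to 821) and 36 (204 CPM, 143 to 283), a log2 ratio of -1.81 (-2.36 to -1.29). Without the cells set apart the ratios were -1.66 and -1.57. Leaving out the top cell of each library gave -1.88 and -1.75. With every cell weighted equally they were -1.0 and -0.88, so how cells are weighted moved both.

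The spread between cells was wide. Among Ccr7 cells, Il12b ran from 0 over a median of 4.43 to 107 UMIs per 10000 in control cells and from 0 over 6.42 to 32.9 after knockdown. The median cell was thus not lower in the knockdown library, and the ranges overlap except for the control cells at the top. At least 10 UMIs of Il12b were found in 5 of 23 control and 1 of 12 knockdown Ccr7 cells, and the highest cells held 68 and 11. Ccl22 ran from 0 over 10.7 to 73.6 and from 0 over 8.22 to 31.2, with at least 10 UMIs in 7 of 23 and 0 of 12. Within Ccr7 cells the log2 ratio was -1.44 (-2.02 to -0.90) for Il12b and -1.53 (-2.08 to -1.01) for Ccl22, and -0.91 (-1.50 to -0.37) and -1.0 (-1.56 to -0.49) without the cells set apart. Il12b also gave 23 UMIs in 3 control type 1-like cells and none in the knockdown ones.

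Other products of mature cells lay on both sides of level. Ccl5 in Ccr7 cells was at 5272 CPM (control) and 5255 CPM (knockdown), a log2 ratio of 0.00 (-0.22 to 0.20), and 0.23 (0.00 to 0.45) without the cells set apart. Fscn1 had a median of 23.3 and 29.3 UMIs per 10000, and its log2 ratio in Ccr7 cells was -0.44 (-0.77 to -0.11), or 0.08 (-0.26 to 0.41) without the cells set apart. Ccl17 was at -0.81 (-1.43 to -0.23) in Ccr7 cells but at 0.17 (-0.24 to 0.58) over all dendritic cells, since 25 of its 87 knockdown UMIs came from type 1-like cells and 23 from 1 cell of the unnamed remainder. Fabp5 lay the other way, at 1860 and 3261 CPM in Ccr7 cells and a log2 ratio of 0.81 (0.51 to 1.11), or 0.98 (0.66 to 1.31) without the cells set apart.

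**Figure D5:**
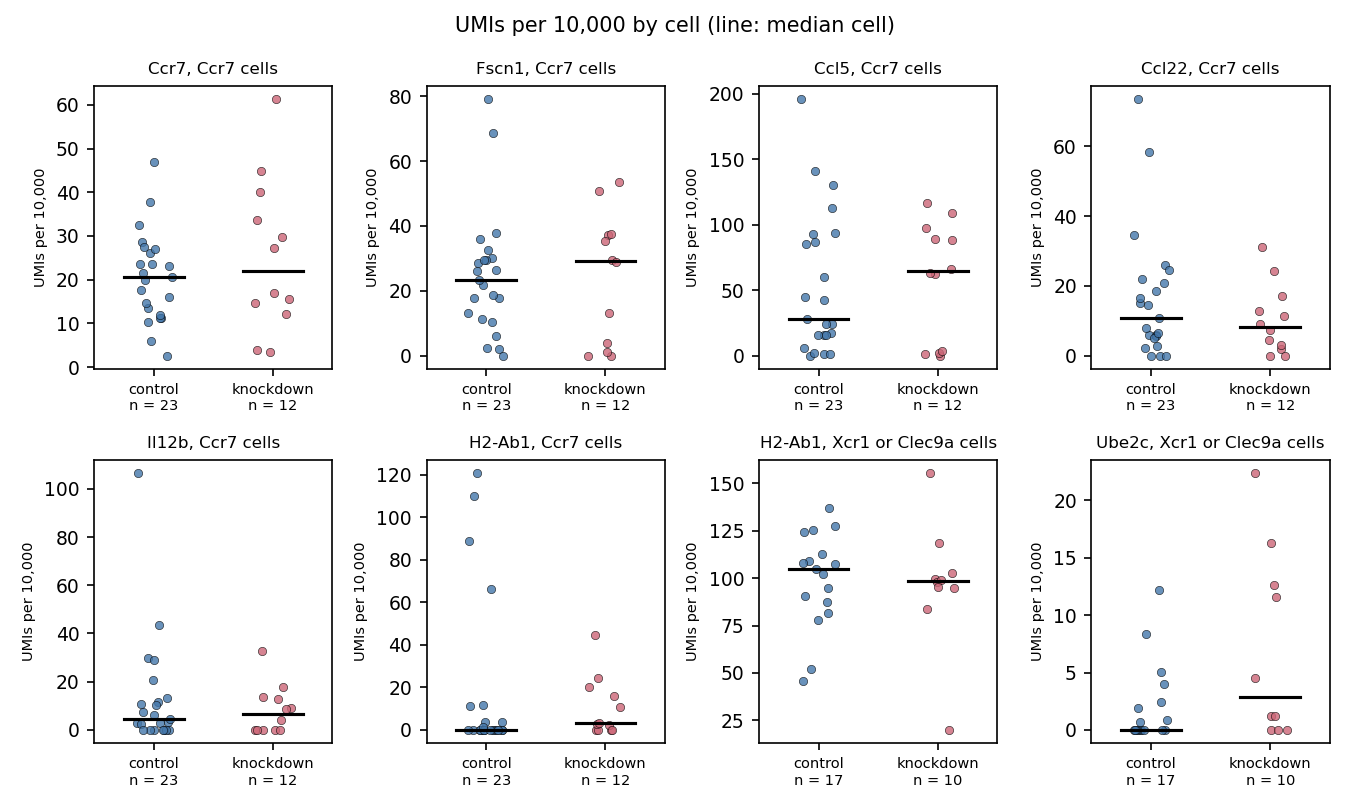
UMIs per 10000 in each Ccr7 cell for Ccr7, Fscn1, Ccl5, Ccl22, Il12b and H2-Ab1, and in each type 1-like cell for H2-Ab1 and Ube2c, by library, with a line at the median cell. The highest Il12b and Ccl22 cells are control cells, while the medians lie close, and H2-Ab1 is high in nearly all type 1-like and in 4 Ccr7 cells.

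Of 14 costimulatory genes, which act with the antigen receptor to activate T cells, 3 reached 50 UMIs and none lay 2-fold apart, beside 5.01% of all 839 genes, with a median log2 ratio of -0.30. Cd86 had 531 CPM (control) and 431 CPM (knockdown), a log2 ratio of -0.30 (-0.72 to 0.11). In Ccr7 cells alone it was at 757 and 298 CPM, a ratio of -1.34 (-2.22 to -0.56), and -0.91 (-1.82 to -0.10) without the cells set apart. Cd83, a marker of maturation, was at -0.66 (-1.02 to -0.31) over all cells. Cd80 and Cd40 were too sparse for the 50 UMI limit, with 48 and 15 and with 24 and 16 UMIs. In Ccr7 cells Cd80, a ligand of CD28 as Cd86 is, gave 45 and 8 UMIs, a ratio of -1.53 (-2.83 to -0.43), or -1.01 (-2.30 to 0.09) without the cells set apart. Cd70, the ligand of CD27, gave 20 and 3 UMIs there, 12 of them in 1 control cell, at -1.78 (-4.17 to -0.02) and -1.25 (-3.65 to 0.50). Tnfrsf4, a costimulatory receptor, was at -1.36 (-2.78 to -0.17) and -0.84 (-2.25 to 0.36). Of 19 inhibitory genes 2 passed it, and Cd274, the ligand PD-L1, stood at 357 and 312 CPM, a ratio of -0.20 (-0.70 to 0.29).

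Antigen presentation genes had no member 2-fold apart, which is near the 5.01% of all genes. All 7 of 12 class II genes and all 14 of 17 class I genes that reached 50 UMIs were within 2-fold, with medians of 0.11 and -0.04. Cd74 stood at 14794 and 14083 CPM and H2-Ab1 at 6434 and 6248 CPM. Within the Ccr7 cells H2-Ab1 was lower, at 2531 and 969 CPM, beside H2-Aa at 0.21 (-0.10 to 0.53) and H2-Eb1, a second beta chain, at -0.02 (-0.29 to 0.25). Of the H2-Ab1 UMIs, 250 of 264 in control Ccr7 cells came from the 4 cells named above. B2m, the light chain of class I, was at 0.14 (-0.06 to 0.34). Of 17 cross-presentation genes 6 reached 50 UMIs and none lay 2-fold apart, with a median of -0.26. These 6 include the rule genes Xcr1 and Clec9a, whose UMIs chose and sorted the cells, so this too is a description. H2-Q6 and H2-Q7 are uncertain, being near-identical copies.

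Of 20 chemokine genes 6 reached 50 UMIs, and only Ccl22 lay 2-fold apart, beside 5.01% of all genes, with a list median of 0.08. Ccl4, an inflammatory chemokine, came from few cells in either library. In type 1-like cells it gave 99 control UMIs, 51 of them in 1 cell, and 14 knockdown UMIs. Over all dendritic cells it gave 101 and 72, because 1 unnamed knockdown cell held 54. Among 21 cytokine genes only Il12b reached 50 UMIs. Tnf gave 37 and 14 UMIs, Il1b 34 and 40, and Ifnb1 and Il10 none. Of 19 chemokine and migration receptors 4 reached 50 UMIs, with none 2-fold apart and a median of -0.04. These 4 include Ccr7 and Xcr1, rule genes that chose the cells, so the list value is a description only.

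Interferon-response genes differed by kind of cell. Of 23 genes 3 reached the limit over all cells, none lay 2-fold apart, and the median was 0.59. Isg15, a ubiquitin-like protein of the interferon response, gave 65 and 10 UMIs in Ccr7 cells, a log2 ratio of -1.74 (-2.87 to -0.77), and -2.54 (-4.46 to -1.11) without the cells set apart. In type 1-like cells it gave 45 and 91 UMIs, a ratio of 1.65 (1.12 to 2.20), of which 55 lay in 1 knockdown cell, and 0.84 without the top cell of each library. Irf7, the factor that amplifies the response, was at 0.96 (0.46 to 1.46) in type 1-like cells and at -0.22 without those top cells. Oasl1 was likewise at 0.80 (0.21 to 1.39) and -0.22. The difference between the 2 kinds of cell was not tested.

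Immediate early and heat shock genes, which respond to stress, reached the limit in 12 of 16, with none higher, 2 lower and a median of -0.18, beside 4.17% lower among all 839 genes. The lower pair were Hspa1a, at 98 and 23 UMIs and a log2 ratio of -1.41 (-2.13 to -0.74), and Hspa1b, at 65 and 14 UMIs and -1.54 (-2.48 to -0.69), near-identical copies whose reads cannot be assigned with certainty. In type 1-like cells Fos ran from 0 over a median of 19.2 to 32.8 UMIs per 10000 in control cells and from 0 over 5.41 to 28.3 after knockdown. Its ratio there was -1.13 (-1.51 to -0.77), Jun was at -0.74 (-1.09 to -0.39) and Atf3 at -1.18 (-1.81 to -0.60). In Ccr7 cells Fos was at 0.35 (-0.43 to 1.12) and Jun at -0.35 (-0.93 to 0.21).

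Ube2c, an enzyme that marks proteins for destruction at the end of mitosis, was furthest above the control among the 839 genes with at least 50 UMIs. It gave 43 UMIs in the control (152 CPM, 110 to 205) and 95 after knockdown (539 CPM, 436 to 658), which is a log2 ratio of 1.82 (1.29 to 2.38), and 2.05 without the cells set apart. Type 1-like cells held 39 and 71 of these UMIs, the unnamed cell with Il1b and Ccl4 held 22, and Ccr7 cells 3 and 2. Among type 1-like cells, at least 5 UMIs were found in 4 of 17 and 5 of 10, and the highest cells held 12 and 30. Top2a, which untangles replicated DNA, did not follow, at 265 and 176 CPM in type 1-like cells and a ratio of -0.59 (-1.48 to 0.24). The mitotic cyclin Ccnb2 lay on the side of Ube2c in these cells, at 8 and 20 UMIs and 1.95 (0.71 to 3.34), and Ccna2, a cyclin of replication and mitosis, gave 3 and 9 UMIs, at 2.22 (0.21 to 4.74). Other sparse cell cycle genes lay on the other side there, with intervals that crossed 0. They were Mki67 (13 and 4 UMIs), Mcm3 (13 and 2), Mcm6 (8 and 2) and Tyms (9 and 2), and further list genes lay on either side. Of 22 cell cycle genes 6 reached 50 UMIs, and Ube2c was the 1 at least 2-fold apart, beside 5.01% of all genes, with a list median of 0.51. The unnamed knockdown cell with Il1b and Ccl4 held 8 UMIs of Top2a, against 18 in all knockdown type 1-like cells. H2az1, a histone variant, was not limited to these cells, with 155 and 78 UMIs in Ccr7 cells.

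Other genes above the control rested in part on the cells set apart. Gng11 was at 1.68 (1.10 to 2.28) with them and at -0.44 (-1.95 to 0.88) without. Lgals1, a galectin, went from 1.27 to 0.23, and S100a6, a calcium-binding protein, from 1.08 to 0.19. Cks1b, U2af1 and Ranbp1, at 1.05, 1.01 and 1.01, stayed near there at 0.85, 1.06 and 0.95. Plac8 was at 0.98 and 1.21, S100a10 at 0.95 and 1.30, and Atp5j2 at 0.88 and 0.69. Of the S100a10 UMIs in the knockdown library, 31 of 71 were in 1 cell.

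Below the control, Dnajc1, Lrba, Dleu2, Aebp2 and Sgms1 lay at -1.88, -1.69, -1.42, -1.38 and -1.35, and at -1.55, -1.58, -1.57, -1.34 and -1.16 without the cells set apart. Lrba, a protein that keeps the checkpoint receptor CTLA-4 from being broken down, was mostly in type 1-like cells, at 100 and 18 UMIs with 32 in 1 control cell. Dnajc1 gave 39 and 4 UMIs in Ccr7 cells, of 53 and 9 in all. Cd34, at -1.54 (-2.58 to -0.63), had 47 of its 56 control UMIs in the 2 control cells set apart, and without the cells set apart its ratio was -2.25 (-7.70 to 0.60).

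Transcription factors, NF-kB genes and metabolic genes were within 2-fold wherever they reached 50 UMIs, as were all but 5.01% of all genes. Of 25 transcription factors 11 reached 50 UMIs, with a median of -0.32. Bcl6, a repressor, was at -0.80 (-1.43 to -0.20) and Batf3, a partner of Irf8, at 0.19 (-0.39 to 0.77). Of 17 NF-kB and maturation genes 8 reached 50 UMIs, with a median of -0.15, and Rel was at -0.64 (-1.09 to -0.21) beside Nfkb1 at 0.05 (-0.45 to 0.53). Of 24 pattern receptor genes 2 reached 50 UMIs (median 0.12), of 20 growth factor receptors 2 (0.25), of 18 glycolysis genes 8 (-0.08) and of 17 lipid genes 2 (0.25). Flt3, whose ligand dendritic cells need, was at 163 and 164 CPM. In the hexosamine pathway only Uap1, which makes the end product, reached 50 UMIs of 9 genes, at 61 and 20 UMIs and a ratio of -0.93 (-1.74 to -0.18), or -0.67 (-1.50 to 0.10) without the cells set apart.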

How the data were processed

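Single-cell RNA was sequenced from 1 control and 1 knockdown tumour library. The authors deposited UMI counts per gene and cell, unnormalized. Cell Ranger is named in version 6.1.0 per the file headers and in version 3.1.0 per the submitters' processing notes, and the genome build and annotation are not given in the sources used here.

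From the counts, cells with at least 500 genes and at most 20% mitochondrial UMIs were kept (11648 and 12560), and dendritic cells were chosen by the marker rule given above. Doublets were kept, after a Scrublet ranking at 0.8% per 1000 cells found none among them. UMIs were summed per library and divided by the dendritic cells' total (CPM). Intervals are 95% and exact: Poisson for a level, Clopper-Pearson for a share, and conditional binomial for a log2 ratio of knockdown over control. They cover counting error only, and with 1 library a group no test between the tumours was made. Counts of genes at least 2-fold apart were made over genes with at least 50 UMIs in 1 library, while ratios of sparser named genes, and within subsets, are given with their UMIs or interval. Other cells were classed from marker genes. Levels are not corrected for gene length.

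The text names the 6 rule genes, the 10 highest and 10 lowest ratios, the 20 genes leading against other cells, the 10 leading in each subset, and genes of 18 function and 15 marker lists. The members and lists were chosen with earlier results of these data known. Genes described cell by cell were picked after their values were seen. The calculations were tested on simulated data. Python 3.11.15, numpy 2.4.6, scipy 1.17.1, pandas 2.3.3, scanpy 1.11.5 and matplotlib 3.10.9 were used. Alternatives covered the marker minimum, depth, doublets, scaling, the UMI limit, weighting of cells and, chosen after seeing the data, leaving out the cells set apart or the top cell.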

Additional observations from a re-analysis of the deposited data

How the results depend on the processing

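The number of dendritic cells depended on the marker minimum. At 2 UMIs they were 0.524% of control and 0.390% of knockdown cells, and Ccr7 cells were 24.5% of the knockdown ones. With cells thinned to 3000 UMIs the control share was 0.248%. Genes at least 2-fold higher numbered 7 and lower 35 as reported. With median-of-ratios scaling 3 were higher, with a marker sum of at least 4 UMIs 11, without the cells set apart (chosen after seeing the data) 3, and weighted to the control subset shares 4. A limit of 20 UMIs gave 66 higher and 175 lower, a limit of 100 gave 2 and 4, and no filter gave 1215 and 1054. List genes at least 2-fold apart, 5 as reported, numbered 24, 2 and 59 under those limits. Of the named genes at least 2-fold apart, a pair changed sign: Cd34, to 0.80 with a marker sum of at least 4 UMIs, and Gng11, to -0.44 without the cells set apart. Genes less than 2-fold apart also changed sign, among them Irf7 (0.63 to -0.45), Oasl1 (0.20 to -0.88) and Ccl4 (0.19 to -0.78) without the top cell of each library, and Dcn (-0.62 to 0.43) and Col3a1 (0.57 to -0.46) without the cells set apart. The cause was not tested beyond the change of cells or genes each setting makes. Among shares and counts, the 17 values above moved and 62 stayed; of the other values of single genes 1212 stayed within their intervals and 51 moved. No paired analysis was possible because each group has 1 library, and for the same reason no replicate could be left out. Depth limits genes under 50 UMIs, among them most cytokines and receptors.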
